A study of Mus musculus with 12 samples.

Results

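The 10 genes studied here carry fatty acids into cells, make the oxysterol 25-hydroxycholesterol or build and empty lipid droplets. Their levels were compared in brain cells taken with magnetic beads against CD11b, from mice with a bone marrow transplant. The genes are Lpl, Lipg, Fabp5, Acsl1, Ch25h, Soat1, Plin2, Hilpda, Pnpla2 and Pparg. They are 10 of the 36491 genes in the count table and were matched by gene symbol, and all 10 were among the 18875 genes that passed the filter on low counts. They were chosen with their values in the comparisons below already known. Their levels and fold changes are therefore given as a description, with no p-value.

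All mice were adult male C57BL/6J animals of wild-type genotype and 6 months of age. Each received a bone marrow transplant with or without a shield over the head, and after recovery ate PLX5622 for 2 weeks and standard chow for the next 6 weeks. The series title names irradiation, which a head shield keeps from the brain; its dose is not given in the sources used here. PLX5622 inhibits the CSF1 receptor and depletes microglia, so every group, the controls included, had been transplanted and depleted. The series asks whether macrophages from the periphery that settle in the brain keep an identity apart from microglia. The 12 libraries form 4 groups of 3. They are unshielded mice given 50 µg of lipopolysaccharide (LPS), the Gram-negative outer membrane lipid that Toll-like receptor 4 senses, shielded mice given LPS, unshielded mice given saline and shielded mice given saline. Cells were taken 6 hours after the intraperitoneal injection with magnetic beads against CD11b, which is also found on macrophages, monocytes and neutrophils. The labels do not say whether the 3 samples of a group came from separate animals, so a p-value reflects only how much these samples vary, and that variation may be technical.

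Each library held 18090977 to 60495968 counts, with the deepest 3 (at least 56776710) from unshielded mice given LPS. Shielded libraries 2 and 3 without LPS carry a treatment field that says LPS, against their titles. The mean log2 CPM (counts scaled to library size) of 10 LPS-response genes was 3.31 and 2.94 in these libraries. It was 3.15 to 4.51 in the other libraries without LPS of either kind of mouse. In the LPS libraries it was higher in shielded mice (8.10 to 8.66) than in unshielded mice (7.34 to 7.89), with no overlap. The 2 libraries of conflicting field are grouped here by their titles, and calls named below that were lost without them are given with both values. All 10 microglia markers were above 0 in each group, with a summed level of 12792 CPM or more in each library.

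As background, lipoprotein lipase (Lpl) and endothelial lipase (Lipg) are secreted enzymes that free fatty acids from lipoproteins. Inside the cell Fabp5 carries fatty acids and Acsl1 joins them to coenzyme A. Ch25h hydroxylates cholesterol to 25-hydroxycholesterol, an interferon-inducible oxysterol with antiviral and sterol-regulating activity, and Soat1 esterifies cholesterol for storage. Lipid droplets are coated by Plin2. Pnpla2, also called ATGL, starts the breakdown of their triglycerides and Hilpda inhibits it. Pparg is a nuclear receptor activated by fatty acid derivatives that turns on uptake and storage genes in macrophages. Activated and lipid-laden microglia are known to store lipid in droplets.

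The stretches just upstream of a gene's start are shown for 4 members that were higher after LPS in both kinds of mouse, since transcription factors of inflammation and low oxygen act on such regions. Each is the 250 bases before a RefSeq gene start in build GRCm38.p6, 5′ to 3′ on the gene's own strand, and 7 of the 10 members were matched in the promoter table. Capitals mark matches, on either strand, to the NF-kB consensus, to the interferon-stimulated response element (GAAA, any 2 bases, GAAA), to the AP-1 site TGANTCA, to the hypoxia response cores ACGTG and GCGTG or to the PPAR direct repeat (AGGNCA, any base, AGGNCA). The windows lie at chr19:34475149-34475398 (minus strand) for Ch25h, chr4:86670060-86670309 (minus strand) for Plin2, chr6:29272376-29272625 (plus strand) for the second start of Hilpda and chr7:141454938-141455187 (plus strand) for Pnpla2.
Ch25h: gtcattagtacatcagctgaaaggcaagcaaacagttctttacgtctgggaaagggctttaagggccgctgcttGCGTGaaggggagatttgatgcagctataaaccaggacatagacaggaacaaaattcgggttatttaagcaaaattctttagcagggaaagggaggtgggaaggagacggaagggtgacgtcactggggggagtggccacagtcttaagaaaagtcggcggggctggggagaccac
Plin2: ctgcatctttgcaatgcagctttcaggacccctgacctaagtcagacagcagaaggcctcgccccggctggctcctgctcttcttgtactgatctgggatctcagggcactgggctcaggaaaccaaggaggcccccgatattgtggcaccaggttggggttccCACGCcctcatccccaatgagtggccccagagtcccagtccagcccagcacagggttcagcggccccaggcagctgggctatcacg
Hilpda: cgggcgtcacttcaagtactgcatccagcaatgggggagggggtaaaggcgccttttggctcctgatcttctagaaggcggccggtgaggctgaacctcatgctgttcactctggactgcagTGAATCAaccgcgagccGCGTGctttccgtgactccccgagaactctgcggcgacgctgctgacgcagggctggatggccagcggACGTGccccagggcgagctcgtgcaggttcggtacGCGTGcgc
Pnpla2: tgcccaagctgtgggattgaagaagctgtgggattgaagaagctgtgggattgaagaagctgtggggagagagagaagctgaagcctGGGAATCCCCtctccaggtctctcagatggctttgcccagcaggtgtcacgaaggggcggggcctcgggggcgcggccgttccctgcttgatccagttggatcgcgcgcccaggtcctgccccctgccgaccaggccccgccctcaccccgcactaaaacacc

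The Pnpla2 window held the NF-kB consensus, as 3.9% of 32851 promoter windows of the same length did. The window of the first Hilpda start had no match. That of the second, shown above, held 1 ACGTG core, 2 GCGTG cores and 1 AP-1 site, found in 16.6%, 28.2% and 6.75% of all windows. Ch25h and Plin2 each held a single GCGTG core, in the Plin2 window as its reverse complement CACGC. Soat1 and the first starts of Acsl1 and Pparg held this core as well. The interferon-stimulated element and the PPAR repeat, present in 2.98% and 0.338% of all windows, had no match in the windows of the 7 members. A match is only a description of these letters.

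**Figure D1:**
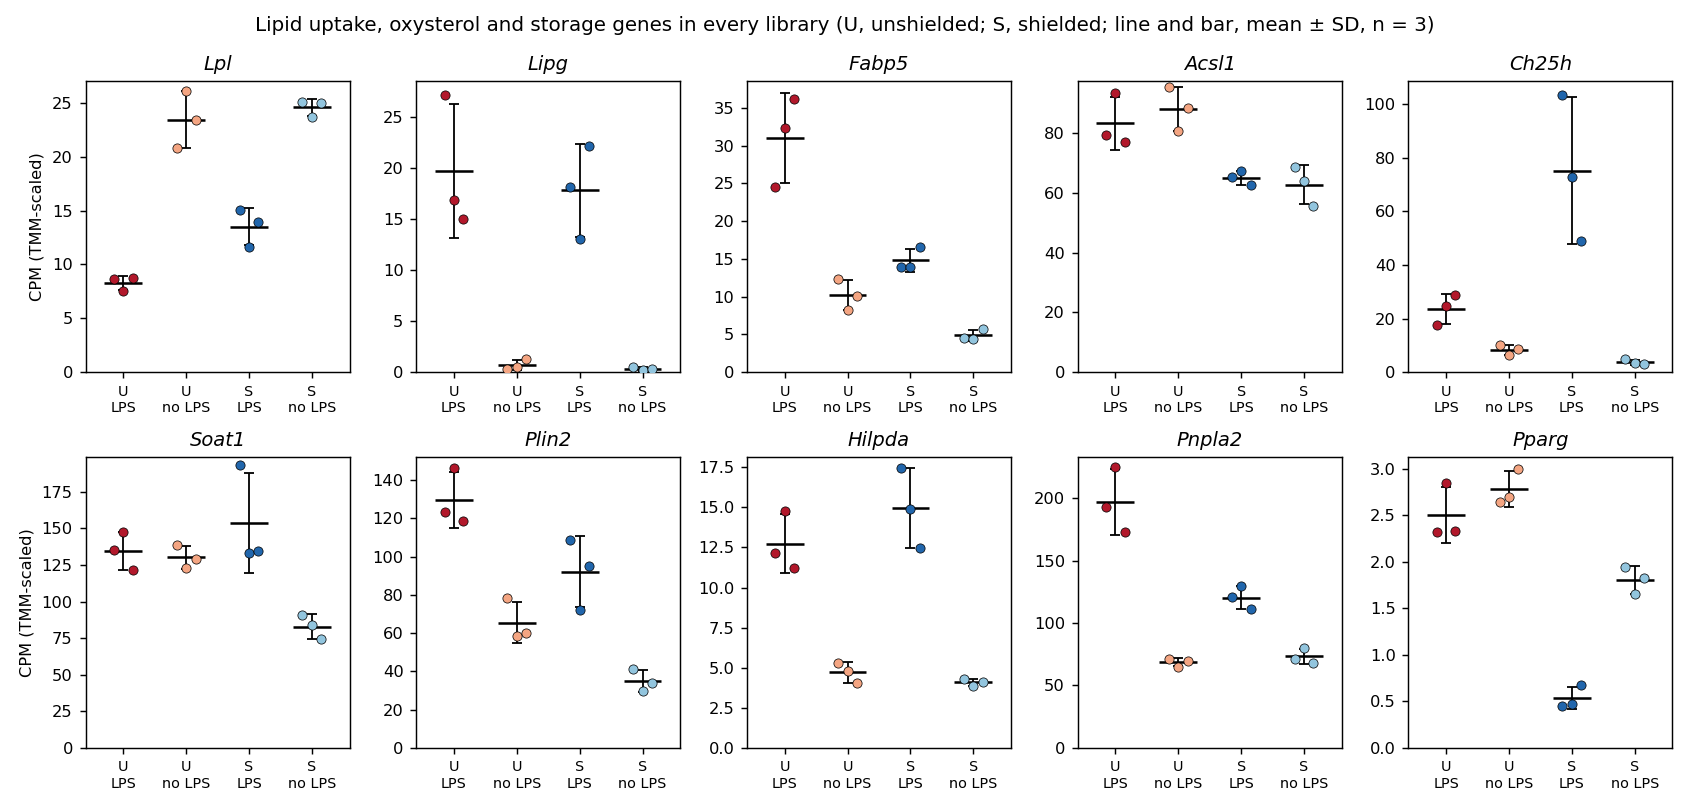
Level of each gene in every library, in TMM-scaled CPM on linear axes that start at 0, with groups of 3 libraries; points are libraries, lines are means and bars are SD. Lipg and Hilpda were high in all 6 LPS libraries, Ch25h stood highest in shielded LPS libraries, and Pparg was lowest there.

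Levels are TMM-scaled CPM, and members were compared with each other per kilobase of annotated exon. In unshielded mice without LPS the mean levels were 22.7 CPM per kilobase for Pnpla2, 18.7 for Plin2, 13.3 for Soat1, 8.41 for Acsl1, 5.98 for Ch25h, 4.27 for Hilpda and 2.86 for Fabp5. Lpl was at 2.24, Pparg at 0.941 and Lipg at 0.146 CPM per kilobase. In shielded mice given LPS Ch25h was the highest member, at 54.2 CPM per kilobase, and in unshielded mice given LPS it was Pnpla2, at 65.2. Soat1 had at least 2559 counts in each library and Pnpla2 at least 1347, while Pparg had 12 to 21 counts in shielded LPS libraries and Lipg 5 to 43 in the libraries without LPS.

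The first question was what LPS did in each kind of mouse. Lipg, Fabp5, Ch25h, Plin2, Hilpda and Pnpla2 were higher after LPS in unshielded and in shielded mice with no overlap between groups, and Lpl was lower in both. Soat1 was higher and Pparg lower in shielded mice, while in unshielded mice their groups overlapped, and Acsl1 overlapped in both. In unshielded mice edgeR called 7 of the 10 members, beside 43.1% of all tested genes. Of these 6 were higher, beside 24.3%, and 1 lower, beside 18.8%. In shielded mice 9 of 10 were called, beside 67.5%, with 7 higher, beside 32.4%, and 2 lower, beside 35.1%. Groups did not overlap for 7 members in unshielded mice, beside 61.4% of genes, and for 9 in shielded mice, beside 69.8%. The choice of members used these contrasts, so nothing is read from the counts. The median log2 fold change of the members was 1.21 in unshielded mice, against -0.06 over all tested genes, and 1.15 in shielded mice, against -0.14. Scaling by library totals in place of TMM moved the medians of all genes to -0.36 and -0.49. It also moved the split of called genes to 2656 higher and 6520 lower in unshielded mice, where TMM gave 4585 and 3543, and to 4042 higher and 9131 lower in shielded mice, where TMM gave 6119 and 6619. Each member called for LPS kept its direction with that scaling.

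Among the uptake genes Lpl, the lipase that marks several states of reactive microglia, was lower after LPS. It had 8.61, 7.50 and 8.69 CPM in unshielded LPS libraries, against 20.8, 26.1 and 23.4 CPM in unshielded libraries without LPS. In shielded mice it had 15.01, 11.6 and 13.9 CPM after LPS, against 25.1, 23.7 and 25.0 CPM without. Every LPS library lay under every library without LPS, and the unshielded LPS libraries lay under the shielded LPS libraries. The log2 fold change was -1.5 ± 0.12 (SE) in unshielded mice and -0.86 ± 0.12 in shielded mice.

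Lipg, on chromosome 18, went the other way and had at most 43 counts in a library without LPS. Its levels were 27.2, 16.9 and 15.03 CPM in unshielded LPS libraries, against 0.296, 0.530 and 1.24 CPM in unshielded libraries without LPS. In shielded mice they were 18.2, 13.1 and 22.2 CPM after LPS, against 0.496, 0.162 and 0.282 CPM without. The LPS libraries of both kinds of mouse overlapped each other and stood far above the rest. The fold was 28.6 in unshielded mice (log2 4.84 ± 0.47) and 54.1 in shielded mice (log2 5.76 ± 0.51). Unshielded library 3 without LPS, the highest of its group for Lipg, also had the highest LPS-response mean without LPS, 4.51, and without it the log2 fold change was 5.64, or 4.36 without unshielded library 1 without LPS. Without the libraries of conflicting field the value in shielded mice was 5.16.

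Fabp5, a fatty acid carrier of macrophages, was higher after LPS by the same log2 fold change in both kinds of mouse. It had 24.5, 32.3 and 36.2 CPM in unshielded LPS libraries, against 12.3, 8.28 and 10.03 CPM in unshielded libraries without LPS. The shielded mice had 14.0, 13.9 and 16.6 CPM after LPS, against 4.57, 4.33 and 5.74 CPM without. All 4 groups were apart from each other. Its log2 fold change was 1.60 ± 0.18 in unshielded mice and 1.60 ± 0.18 in shielded mice. Fabp5 holds stretches of up to 409 bases that match 5 other annotated genes at 90% identity or more. Their rows held 106 counts together over the 12 libraries, against 7979 for Fabp5, so some of its reads may be split among them. Acsl1, which activates fatty acids for use, had 79.5, 93.5 and 77.0 CPM in unshielded LPS libraries, against 95.5, 80.7 and 88.4 CPM without LPS, and these overlapped. Among shielded libraries it had 65.3, 67.4 and 62.8 CPM after LPS, against 68.8, 64.1 and 55.7 CPM without, which overlapped as well. All 6 unshielded libraries were above all 6 shielded ones. The Acsl1 log2 fold change for LPS was -0.08 ± 0.10 in unshielded mice and 0.05 ± 0.10 in shielded mice, or -0.29 in shielded mice with library totals.

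Ch25h gave the most unequal LPS effects in the set. It had 17.6, 24.8 and 28.7 CPM in unshielded LPS libraries, against 10.1, 6.31 and 8.47 CPM in unshielded libraries without LPS. Its shielded libraries had 104, 72.8 and 49.0 CPM after LPS, against 4.78, 3.33 and 3.05 CPM without. No group overlapped another, and the shielded mice held both the highest and the lowest group. The fold was 2.83 in unshielded mice (log2 1.5 ± 0.29) and 20.1 in shielded mice (log2 4.33 ± 0.33), or 3.98 on the log2 scale without the libraries of conflicting field. Ch25h shares 159 exon bases with Gm26902 on the opposite strand. With no strand setting of the counting given, reads there cannot be assigned to one of them, and its values are uncertain to that extent.

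Soat1, which esterifies cholesterol, overlapped among 3 of the 4 groups. It had 135, 147 and 122 CPM in unshielded LPS libraries, against 138, 123 and 129 CPM in unshielded libraries without LPS. In shielded mice the levels were 193, 133 and 135 CPM after LPS, against 90.8, 83.8 and 74.1 CPM without. Only the shielded libraries without LPS were apart from the rest. On the log2 scale the fold change was 0.05 ± 0.14 in unshielded mice, or -0.25 with library totals, and 0.89 ± 0.14 in shielded mice, or 0.54 with library totals.

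The droplet coat gene Plin2 was higher after LPS in both kinds of mouse. It had 123, 146 and 119 CPM in unshielded LPS libraries, against 78.1, 58.6 and 59.8 CPM in unshielded libraries without LPS. Among shielded mice it had 109, 72.2 and 95.0 CPM after LPS, against 41.2, 29.5 and 33.8 CPM without. The groups were apart for LPS in both. The log2 fold change was 0.98 ± 0.17 in unshielded mice and 1.4 ± 0.17 in shielded mice. Plin2 holds a stretch of 259 bases that matches 1 other gene at 90% identity or more, with 15 counts against 40325. Exons of Soat1 and Lpl hold stretches of up to 183 and 153 bases that match 1044 and 81 other genes at 90% identity or more. Those genes held 20531120 and 1192995 counts, against 58991 for Soat1 and 7877 for Lpl. The counts of Soat1 and Lpl are uncertain where reads fall there.

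Hilpda, the inhibitor of droplet lipolysis, overlapped between the kinds of mouse but was apart between LPS and no LPS. It had 12.2, 14.8 and 11.2 CPM in unshielded LPS libraries, against 5.31, 4.77 and 4.03 CPM in unshielded libraries without LPS. In shielded mice it had 17.5, 14.9 and 12.5 CPM after LPS, against 4.29, 3.85 and 4.12 CPM without. Its log2 fold change was 1.43 ± 0.16 in unshielded mice and 1.87 ± 0.16 in shielded mice. Its target Pnpla2, the triglyceride lipase, was higher after LPS as well. Pnpla2 had 193, 225 and 173 CPM in unshielded LPS libraries, against 71.0, 64.9 and 69.3 CPM in unshielded libraries without LPS. The shielded mice had 121, 129.6 and 111 CPM after LPS, against 71.4, 80.1 and 67.9 CPM without. The groups without LPS overlapped, and the unshielded LPS libraries were above all others. On the log2 scale the fold change was 1.53 ± 0.11 in unshielded mice and 0.72 ± 0.11 in shielded mice, where scaling by library totals gave 0.37.

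Pparg was the member with the fewest counts in LPS libraries. It had 2.32, 2.85 and 2.33 CPM in unshielded LPS libraries, against 2.65, 2.70 and 2.997 CPM in unshielded libraries without LPS, and these overlapped. Its shielded libraries had 0.452, 0.475 and 0.672 CPM after LPS, against 1.94, 1.65 and 1.82 CPM without. The shielded LPS libraries were under all others. The log2 fold change was -0.16 ± 0.19 in unshielded mice and -1.75 ± 0.23 in shielded mice.

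**Figure D2:**
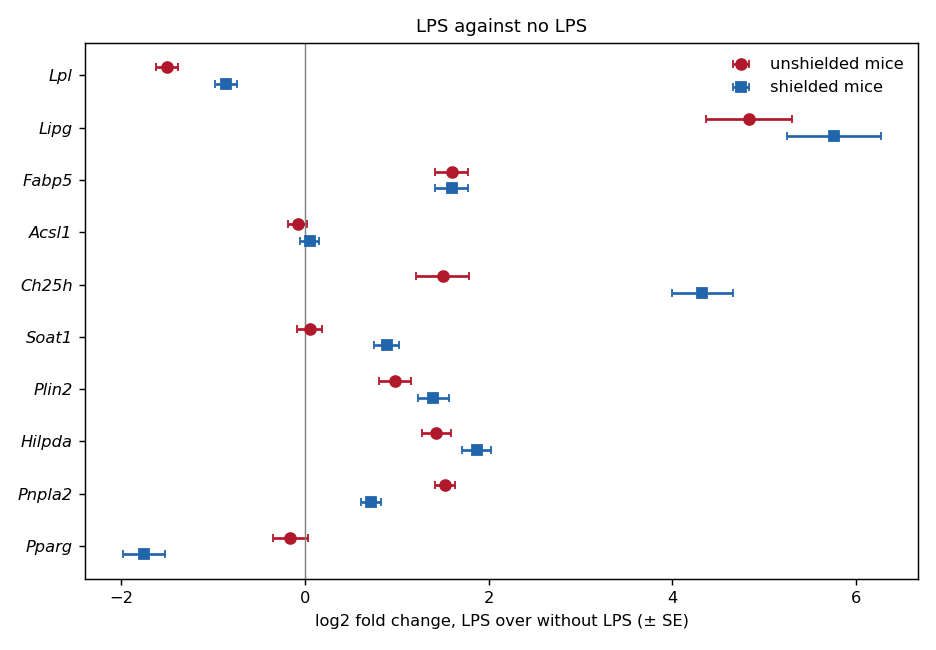
Log2 fold change of each gene for LPS over no LPS, with its SE from edgeR, in unshielded mice (circles) and shielded mice (squares), 3 libraries a group. Ch25h stood at 1.5 in unshielded and 4.33 in shielded mice, Pparg at -0.16 and -1.75, and Pnpla2 at 1.53 and 0.72.

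Set side by side, the LPS effect in unshielded mice minus that in shielded mice was -2.83 ± 0.42 (log2, SE) for Ch25h, 1.60 ± 0.30 for Pparg, -0.84 ± 0.20 for Soat1, 0.81 ± 0.15 for Pnpla2 and -0.64 ± 0.16 for Lpl. The storage genes Plin2 and Hilpda were at -0.42 ± 0.24 and -0.44 ± 0.23. Fabp5 was at 0 ± 0.23, Acsl1 at -0.13 ± 0.14 and Lipg at -0.92 ± 0.68, the widest error of the 10, and -0.13 without unshielded library 3 without LPS. The median of the 10 members was -0.43, against 0.08 over all tested genes. These are descriptions of genes chosen for such values.

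Markers of microglia and of other cell types moved with LPS as well. The 8 border-associated macrophage markers summed to a mean of 2720 CPM in unshielded LPS libraries, against 1063 CPM without LPS. In shielded mice the means were 438 CPM after LPS and 439 CPM without. Mrc1 alone, 1 of the 8, averaged 1865 CPM in unshielded LPS libraries, against 669 CPM without LPS. Of these 8, 4 were called higher and 1 lower in unshielded mice, and 1 higher and 4 lower in shielded mice. Of 10 microglia markers 7 were called lower and 1 higher in unshielded mice, and 8 lower and 1 higher in shielded mice. Of 5 B cell markers 4 were at most 2.55 CPM in any library, and Ighm averaged 33.1 CPM in unshielded LPS libraries, against 272 CPM without LPS, and 39.3 CPM in shielded LPS libraries, against 347 CPM without. The summed level of 8 endothelial markers was 122 to 195 CPM in unshielded LPS libraries, against 303 to 338 CPM without LPS, and 122 to 161 CPM in shielded LPS libraries, against 212 to 342 CPM without. Of these 8 edgeR called 6 lower and 1 higher in unshielded mice and 5 lower and 1 higher in shielded mice. The sum of 9 neuron markers was 129 to 243 CPM in unshielded LPS libraries, against 303 to 352 CPM without LPS, and 36.5 to 181 CPM in shielded LPS libraries, against 203 to 376 CPM without. That of 8 oligodendrocyte markers was 1049 to 1868 CPM in unshielded LPS libraries, against 1758 to 2256 CPM without LPS, and 423 to 1303 CPM in shielded LPS libraries, against 1759 to 2762 CPM without. The 8 monocyte markers summed to 257 to 332 CPM in unshielded LPS libraries, against 56.8 to 71.2 CPM without LPS, and to 164 to 284 CPM in shielded LPS libraries, against 51.8 to 79.3 CPM without. EdgeR called 7 of them higher and 1 lower in unshielded mice and 6 higher and 1 lower in shielded mice. Ccr2 went down, to 6.85 CPM in unshielded LPS libraries, against 14.2 CPM without LPS. In shielded LPS libraries it averaged 6.13 CPM, against 18.2 CPM without. The 10 neutrophil markers summed to 270 to 1027 CPM in unshielded LPS libraries, against 52.3 to 158.5 CPM without LPS, and to 296 to 506 CPM in shielded LPS libraries, against 167 to 389 CPM without, where the ranges overlapped. Of these 10 edgeR called 5 higher and 0 lower in unshielded mice and 1 higher and 1 lower in shielded mice. Among 7 astrocyte markers it called 1 higher and 1 lower in unshielded mice and 2 higher and 2 lower in shielded mice. Of these lists no marker was at 0 in any group, and edgeR called 8 of 9 neuron markers and 8 of 8 oligodendrocyte markers lower after LPS in shielded mice, with 0 of 9 and 2 of 8 in unshielded mice. Their part in the members' values was not tested. In bulk samples fewer cells of a type and less RNA per cell cannot be told apart. Among 6 adipocyte markers Adipoq, Plin1, Cidec, Lep and Cfd each averaged at most 0.283 CPM in any group, and Adipoq was at 0 in the unshielded group without LPS and the shielded LPS group. Fabp4, the remaining marker, is described with the uptake genes.

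The second comparison asked how cells from mice without the head shield compared with cells from shielded mice. In the saline groups Fabp5, Acsl1, Ch25h, Soat1, Plin2 and Pparg were higher in unshielded mice with no overlap, and Lpl, Lipg, Hilpda and Pnpla2 overlapped. Fabp5 averaged 10.2 ± 2.02 CPM in unshielded and 4.88 ± 0.755 CPM in shielded libraries (SD, n = 3 each). Its log2 fold change was 1.07 ± 0.18 (SE). Ch25h averaged 8.29 ± 1.90 CPM in unshielded and 3.72 ± 0.930 CPM in shielded libraries, a log2 fold change of 1.16 ± 0.31. For Plin2 the means were 65.5 ± 10.9 CPM in unshielded and 34.8 ± 5.92 CPM in shielded libraries (log2 fold change 0.91 ± 0.17). Its log2 fold change was 0.65 ± 0.14 for Soat1, 0.62 ± 0.20 for Pparg and 0.49 ± 0.10 for Acsl1. For the 4 overlapping members it was 1.07 ± 0.58 for Lipg, 0.20 ± 0.16 for Hilpda, -0.07 ± 0.11 for Lpl and -0.10 ± 0.11 for Pnpla2.

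Of the 10 members 5 were called without LPS, beside 10.8% of all tested genes. All 5 were higher, beside 3.98% of genes called higher and 6.85% called lower, and 6 did not overlap, beside 33.6%. Because the members were chosen with these values known, nothing is read from these counts or from the calls below. The members' median log2 fold change was 0.64, against 0 over all tested genes. Without the 2 libraries of conflicting field, which leaves 1 shielded library without LPS, edgeR called 0 of the 10, and 4 at an unadjusted p under 0.05. The lone library is then assumed to vary like the other groups. The log2 fold changes were then 1.16 for Fabp5, 0.80 for Ch25h, 0.66 for Plin2, 0.51 for Soat1 and Pparg and 0.35 for Acsl1. The call of Ch25h was also lost without shielded library 2 or 3 without LPS or unshielded library 1 or 3 without LPS (1.0 to 1.15), and that of Soat1 without unshielded library 1 without LPS (0.61). Without unshielded library 3 the Lipg value was 0.23.

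After LPS the shield differences were of other sizes for several members, and for Ch25h of the other direction with no overlap either time. Pparg averaged 2.50 ± 0.301 CPM in unshielded and 0.533 ± 0.121 CPM in shielded libraries (SD, n = 3 each). Its log2 fold change was 2.22 ± 0.22, with every unshielded library above every shielded one. Ch25h averaged 23.7 ± 5.61 CPM in unshielded and 75.2 ± 27.4 CPM in shielded libraries, a log2 fold change of -1.67 ± 0.28, so the shielded LPS libraries were the higher ones, where without LPS the unshielded were. Fabp5 kept its log2 fold change, at 1.06 ± 0.17. Lpl, whose groups overlapped without LPS, averaged 8.27 ± 0.663 CPM in unshielded and 13.5 ± 1.74 CPM in shielded libraries (log2 fold change -0.71 ± 0.12). Pnpla2, which also overlapped without LPS, averaged 197 ± 26.5 CPM in unshielded and 120.4 ± 9.36 CPM in shielded libraries (log2 fold change 0.71 ± 0.11). On the log2 scale the fold change was 0.49 ± 0.17 for Plin2 and 0.35 ± 0.10 for Acsl1, and these too had no overlap. Lipg (0.14 ± 0.37), Soat1 (-0.19 ± 0.14) and Hilpda (-0.23 ± 0.16) overlapped.

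Of the 10 members 7 were called after LPS, beside 44.6% of all tested genes, with 5 higher, beside 19.1%, and 2 lower, beside 25.6%, and 7 did not overlap, beside 49.5%. As the contrasts chose the members, nothing is read from these counts. The median log2 fold change was 0.25, against 0.07 over all tested genes. The call of Acsl1 was lost without any 1 of the 3 shielded LPS libraries (0.27 to 0.34). That of Plin2 was lost without shielded LPS library 2 (0.30) or 3 (0.46) or unshielded LPS library 1 (0.48) or 2 (0.42). Of the libraries left out in turn, only shielded LPS library 3 brought a call of Hilpda (-0.41).

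**Figure D3:**
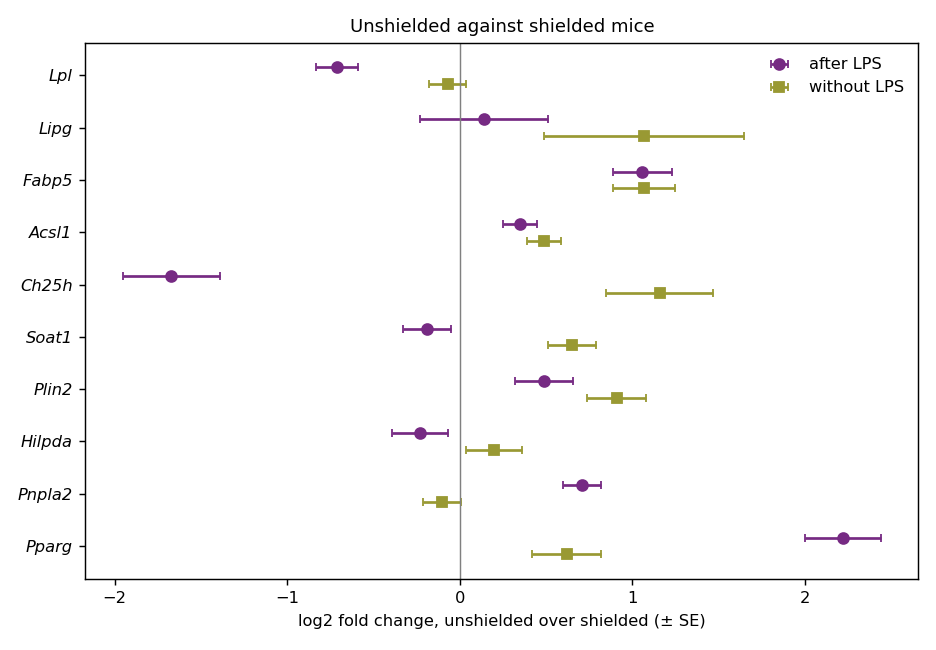
Log2 fold change of each gene for unshielded over shielded mice, with its SE from edgeR, after LPS (circles) and without LPS (squares), 3 libraries a group. Ch25h stood at -1.67 after LPS and 1.16 without, Pparg at 2.22 and 0.62, and Fabp5 at 1.06 and 1.07.

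Markers of other macrophages moved with the shield. The 8 markers of border-associated macrophages summed to 2423 to 3075 CPM in unshielded LPS libraries, against 383 to 531 CPM in shielded LPS libraries. Without LPS they summed to 1002 to 1163 CPM in unshielded libraries, against 389 to 477 CPM in shielded libraries. Mrc1 made up most of these sums in unshielded mice, with a mean of 1865 CPM after LPS and 669 CPM without. Lyve1 and Cbr2 overlapped between unshielded and shielded libraries with and without LPS. After LPS Lyve1 averaged 12.2 CPM in unshielded and 11.96 CPM in shielded libraries, and Cbr2 15.9 and 13.9 CPM. Without LPS Folr2 (25.5 and 24.3 CPM) and F13a1 (122 and 87.05 CPM) overlapped as well. The 10 microglia markers summed to 12792 to 13958 CPM in unshielded LPS libraries, against 19167 to 22130 CPM in shielded LPS libraries, and to 15414 to 18442 CPM in unshielded libraries without LPS, against 25375 to 30242 CPM in shielded ones. No marker of these lists was at 0 in any group. EdgeR called 6 of 8 border-associated macrophage markers higher and 8 of 10 microglia markers lower in unshielded mice after LPS, and 4 of 8 and 8 of 10 without LPS. Other cell types had calls too. After LPS 4 of 7 astrocyte markers were higher and 1 lower in unshielded mice, and 3 of 8 endothelial markers higher and 1 lower. There 2 of 8 oligodendrocyte markers and 1 of 9 neuron markers were higher as well. Without LPS 2 of 10 neutrophil markers and 1 of 7 astrocyte markers were lower and 1 of 8 monocyte markers higher. The part of such cells in the values of Pparg, Fabp5, Plin2 and the other members was not tested.

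The other genes of these pathways were read from 5 lists with 80 genes, of which 79 were in the table and 74 were tested. The lists, like the members, were chosen with earlier results of these data known. Nothing is therefore read from their counts or shares. Single genes are given with edgeR's adjusted p, which takes no account of that choice. For LPS 22 rose and 17 fell in unshielded mice and 28 rose and 24 fell in shielded mice, which is 52.7% and 70.3% of the 74 tested, beside 43.1% and 67.5% of all tested genes. Soat2, the second cholesterol esterifying enzyme, rose to 107 ± 26.9 CPM in unshielded LPS libraries, against 10.8 ± 2.64 CPM without LPS (SD, n = 3 each; log2 fold change 3.31 ± 0.21, edgeR adjusted p = 4.41e-07). In shielded mice it rose to 78.7 ± 12.4 CPM after LPS, against 9.10 ± 0.262 CPM (log2 fold change 3.11 ± 0.21, edgeR adjusted p = 1.79e-07). Of the acyl-CoA synthesis and droplet storage list 8 rose and 3 fell in unshielded mice and 8 rose and 7 fell in shielded mice, of 20 tested. Lpin1, which makes diacylglycerol, fell by 0.90 on the log2 scale in unshielded mice and by 2.31 in shielded mice. Dgat2, which makes triglyceride, rose by 0.96 and 1.31 in these mice and Acsl5 by 0.87 and 1.29. Acsl3 went the other way, with -0.44 in unshielded mice (edgeR adjusted p = 0.123) and -0.82 in shielded mice (0.00726). Dgat1 was called in neither, at -0.03 in unshielded and -0.13 in shielded mice.

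In the uptake list 4 rose and 4 fell in unshielded mice and 3 rose and 7 fell in shielded mice, of 13 tested. Fabp4, the adipocyte and macrophage fatty acid carrier, rose by 3.34 ± 0.33 in unshielded mice (edgeR adjusted p = 6.20e-06) and by 3.12 ± 0.35 in shielded mice (6.68e-06) on the log2 scale. It averaged 6.41 CPM in unshielded LPS libraries, against 0.624 CPM without LPS, and 2.75 CPM in shielded LPS libraries, against 0.313 CPM without. Both folds thus start from very low levels. Angptl4, a secreted inhibitor of Lpl, rose to 7.84 ± 2.09 CPM in unshielded LPS libraries, against 1.95 ± 1.21 CPM without LPS, and to 11.9 ± 3.06 CPM in shielded LPS libraries, against 1.03 ± 0.199 CPM without. Its log2 fold changes were 1.97 ± 0.38 and 3.52 ± 0.40 (edgeR adjusted p = 0.00119 and 1.13e-05). Cd36, a scavenger receptor and fatty acid translocase, fell by 1.20 on the log2 scale in unshielded mice and by 2.16 in shielded mice (edgeR adjusted p = 0.00243 and 3.40e-05).

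Of the oxysterol list 4 rose and 5 fell in unshielded mice and 6 rose and 3 fell in shielded mice, of 14 tested. Cyp27a1, which makes 27-hydroxycholesterol, fell to 41.5 ± 2.04 CPM in unshielded LPS libraries, against 110.2 ± 15.3 CPM without LPS, and to 9.94 ± 1.94 CPM in shielded LPS libraries, against 57.9 ± 6.35 CPM without. Its log2 fold changes were -1.41 ± 0.14 and -2.54 ± 0.15 (edgeR adjusted p = 6.17e-06 and 4.86e-08). Gpr183, the receptor of oxysterols derived from 25-hydroxycholesterol, fell by 1.09 on the log2 scale in unshielded mice (edgeR adjusted p = 0.000125), and its log2 fold change in shielded mice was 0.23 ± 0.15 (adjusted p = 0.196), or -0.12 with library totals. In the lipolysis list 2 rose and 4 fell in unshielded mice and 3 rose and 4 fell in shielded mice, of 8 tested. G0s2, an inhibitor of Pnpla2, rose by 2.30 ± 0.21 and 1.45 ± 0.20 on the log2 scale (edgeR adjusted p = 3.65e-06 and 4.61e-05), and Lipa, the lysosomal acid lipase, fell by 1.13 and by 1.10. Of the PPAR partner and oxidation list 4 rose and 1 fell in unshielded mice and 8 rose and 3 fell in shielded mice, of 19 tested. Rxra, the partner of Pparg, fell by 0.54 on the log2 scale in shielded mice (edgeR adjusted p = 0.000292), and its log2 fold change in unshielded mice was 0.02 (adjusted p = 0.865).

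Between unshielded and shielded mice 7 of the 74 genes were higher and 8 lower without LPS, or 20.3%, beside 10.8% of all tested genes. After LPS 19 were higher and 15 lower, or 45.9%, beside 44.6%. Cd36 averaged 47.1 ± 5.78 CPM in unshielded and 8.02 ± 1.38 CPM in shielded LPS libraries, and 108 ± 15.1 CPM in unshielded and 35.8 ± 15.5 CPM in shielded libraries without LPS. Its log2 fold change was 2.55 ± 0.27 after LPS and 1.59 ± 0.25 without (edgeR adjusted p = 3.17e-05 and 0.00192). Cyp27a1 was higher in unshielded mice by 2.06 after LPS and 0.93 without, the droplet protein Plin3 by 1.63 and 0.66 and the cholesteryl ester hydrolase Nceh1 by 1.07 and 0.97, on the log2 scale (edgeR adjusted p at most 0.00399). Gpr183 was lower by 1.26 after LPS (log2 fold change -1.26 ± 0.16, edgeR adjusted p = 5.24e-05) and had 0.06 ± 0.15 without LPS (adjusted p = 0.888). Abhd5, the activator of Pnpla2, had a log2 fold change of -0.99 ± 0.12 after LPS (edgeR adjusted p = 5.62e-05). The LPS effects of 14 of the 74 genes differed between the kinds of mouse, 8 higher and 6 lower in unshielded mice, or 18.9%, beside 13.3% of all tested genes (4.06% higher, 9.25% lower). Without the 2 libraries of conflicting field 1 gene of the lists was called for the shield without LPS, Cd36, at 1.01. Cyp27a1 then had 0.75 (edgeR adjusted p = 0.106), Nceh1 0.78 (0.0792) and Plin3 0.52 (0.212) on the log2 scale. Leaving out single libraries gave 6 to 18 called genes of the 74 for the shield without LPS, the lowest without shielded library 2.

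**Figure D4:**
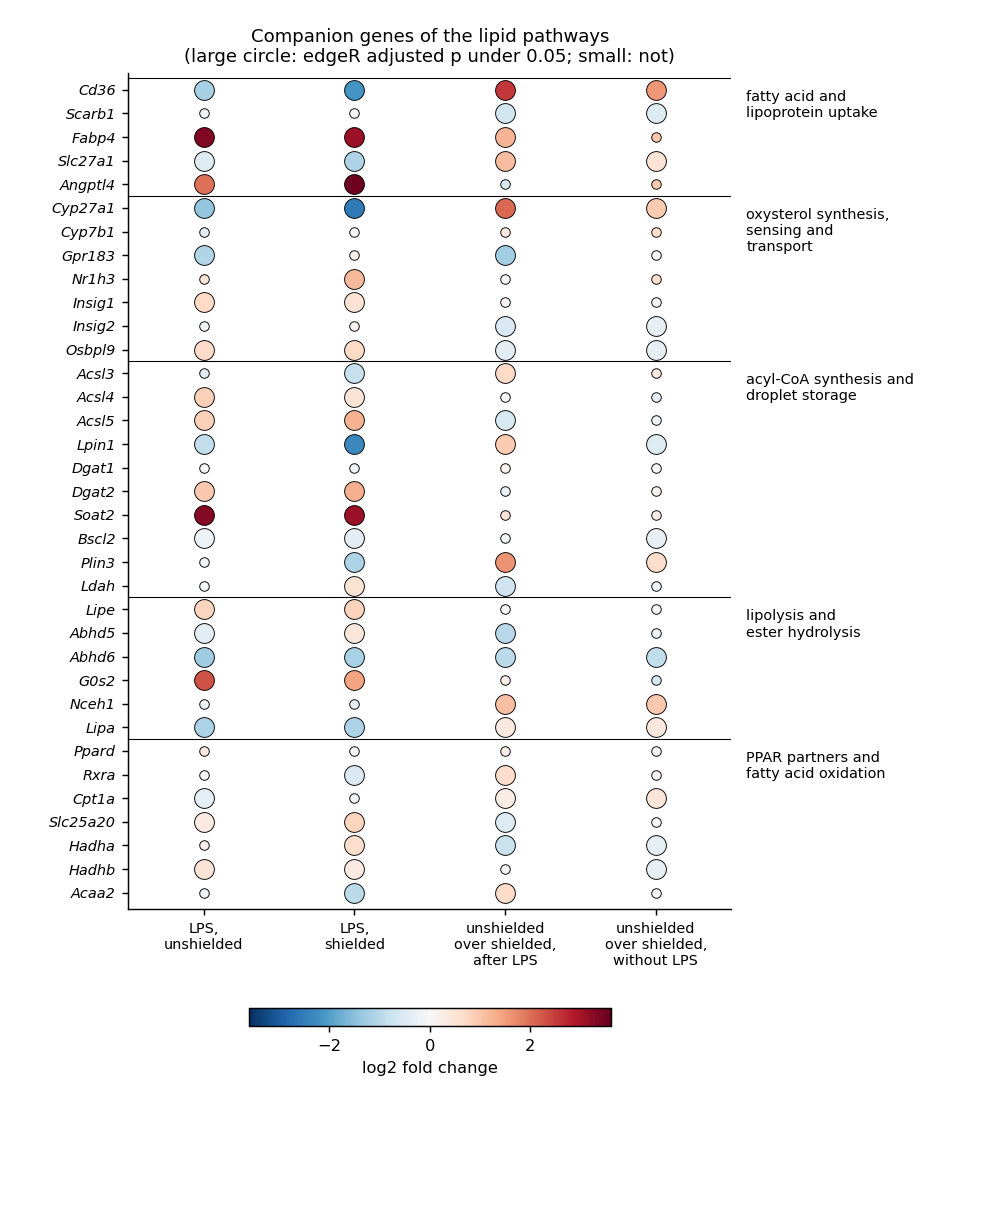
Log2 fold changes of the named companion genes of the 5 lists by comparison, shown by colour (blue lower, red higher), with large circles where edgeR's adjusted p was under 0.05. Soat2 and Fabp4 are deep red for LPS in both kinds of mouse, Angptl4 is deepest in shielded mice (3.52), and Cd36 and Cyp27a1 are blue for LPS and red for unshielded over shielded mice.

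Exons of Acsl3, Acsl5, Bscl2, Osbpl9, Lipe, Abhd5, Nr1h3 and Hadha, and of the member Acsl1, overlap those of another annotated gene, so their counts are uncertain. For each member the gene with the most similar pattern was found by the root mean square distance between log2 CPM values centred on their means, over the 12 libraries. The nearest were Scly to Acsl1 (0.095), Ap1b1 to Pnpla2 (0.103), Nadk to Soat1 (0.13), Batf2 to Plin2 (0.13), Dtx2 to Hilpda (0.13), Rab3d to Pparg (0.144), Camk1d to Lpl (0.171), Dnajb13 to Fabp5 (0.181), Slfn4 to Lipg (0.345) and Gpr18 to Ch25h (0.353).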

How the data were processed

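Per the labels' protocols RNA was amplified linearly before the libraries were made, which can add to the spread between them. The submitters' processing notes name FastQC, STAR, HTSeq and build mm9. For versions, annotation and strand setting the sources used here say nothing. The values deposited are the authors' raw counts, one whole number per gene and library, per the file headers and the values, and every row of the table sums to at least 2.

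Groups follow the sample titles. The test was the quasi-likelihood test of edgeR 4.0.16 (R 4.3.3; robust, two-sided, TMM) in one model over 12 libraries. Genes passed filterByExpr (minimum count 10, minimum total 15), p-values were adjusted by Benjamini-Hochberg over all 18875 genes, and a gene past 0.05 is named called. The code was tested on simulated data. The SE comes from the log2 fold change over the root of F. CPM are TMM-scaled, and log2 CPM have a prior count of 2. Symbols were looked up in reference tables, and 254 identifiers had none. Exon lengths and overlaps are from a GENCODE annotation of another build, so coordinates are given for promoter windows alone. Any 2 libraries of a group differed by a chi-square per degree of freedom of 11.2 or more, so none were copies.

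Between LPS and no LPS in shielded mice, the deviations of same-numbered libraries had correlations of 0.112, 0.194 and 0.547. For LPS in unshielded mice they were -0.115, -0.094 and 0.02. For the shield they were 0.14, -0.016 and 0.123 without LPS and -0.264, 0.152 and 0.478 after LPS. The main model did not pair libraries, and the replicate number was fitted as a block only as an alternative. Alternatives were DESeq2 1.42.0, other scalings, no filter, each library left out, both other treatments of the conflicting field and the replicate block. The members and lists were chosen with earlier results of these data known. Genes were named from the lists by the smallest p in each direction of each list and comparison, with a fixed set of further genes, and a few of them are not described.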

Additional observations from a re-analysis of the deposited data

Results flagged for a closer look

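By edgeR's test of the difference itself, the LPS effect differed between unshielded and shielded mice for 14 genes of the pathway lists. The 12 of them that were among the named genes are given here (log2, unshielded minus shielded, adjusted over all genes). The adjusted p takes no account of the choice of the lists, which was made with earlier results known. Lpin1 stood at 1.42 (adjusted p = 0.002), with LPS effects of -0.90 in unshielded and -2.31 in shielded mice. Gpr183 stood at -1.32 (0.00317), Cyp27a1 at 1.13 (0.00373) and Plin3 at 0.97 (0.00497). Abhd5 had -0.77, with LPS effects of -0.37 in unshielded and 0.40 in shielded mice (adjusted p of the difference 0.0142), and its exons overlap those of another gene. Neither Abhd5 effect was firm. The shielded one was 0.05 with library totals (adjusted p = 0.746), 0.36 with no filter (0.0566), 0.35 without the 2 libraries of conflicting field (0.176) and 0.34 without shielded LPS library 1 (0.0502). The unshielded one was not called with no filter (-0.32), without the conflicting libraries (-0.37), or without unshielded LPS library 2 or 3 or unshielded library 1 or 3 without LPS (-0.40 to -0.26). Acaa2 had 0.77, Rxra 0.56, Lrp1 0.84, Ldah -0.53, Slc25a20 -0.49, Hadha -0.46 and Slc27a1 0.64, with adjusted p of 0.0129 to 0.0484. With no filter on low counts Ldah (-0.45, adjusted p = 0.124), Slc25a20 (-0.41, 0.275), Hadha (-0.38, 0.226) and Abhd5 (-0.68, 0.053) were not called. Slc27a1 was not called with DESeq2 size factors (0.61, adjusted p = 0.0567) or library totals (0.68, 0.0677).

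The calls of Slc25a20, Hadha, Slc27a1 and Lrp1 were each lost without at least 8 of the 12 libraries in turn. That of Rxra was lost without shielded LPS library 2, shielded library 1 without LPS or unshielded library 2 or 3 without LPS (0.49 to 0.52).
Without the 2 libraries of conflicting field the calls of Lpin1, Cyp27a1 and Plin3 held and those of the other 9 were lost, with adjusted p of 0.057 to 0.317. The log2 values were then -1.38 for Gpr183, 0.81 for Acaa2, 0.59 for Rxra, 0.79 for Lrp1, -0.72 for Abhd5, -0.52 for Ldah, -0.40 for Slc25a20, -0.41 for Hadha and 0.58 for Slc27a1.

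Ch25h had opposite shield differences with no overlap of libraries, -1.67 after LPS and 1.16 without LPS (log2, unshielded over shielded). The difference between them was -2.83, and because the gene was chosen for such values it was not tested. The LPS-response mean was also higher in shielded LPS libraries (8.10 to 8.66) than in unshielded LPS libraries (7.34 to 7.89). Its relation to the Ch25h values was not tested.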

How the results depend on the processing

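Of the members Pparg and Lipg had the lowest counts, with 12 and 5 in their lowest libraries, so their values there are the least precise. Ranges below give the lowest and highest count with 1 library left out.

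For LPS in shielded mice 12738 genes were called (10725 to 13697), 52 pathway genes (48 to 55) and 9 members (9 to 9). In unshielded mice these were 8128 (6219 to 9442), 39 (31 to 43) and 7 (7 to 7). Unshielded against shielded without LPS gave 2043 (1094 to 2353), 15 (6 to 18) and 5 (3 to 6), and after LPS 8423 (6362 to 11101), 34 (27 to 41) and 7 (5 to 7). The difference of LPS effects gave 2512 genes (1615 to 6391) and 14 pathway genes (9 to 28), the highest counts without shielded LPS library 3, and 1571 genes with no filter.

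Without the 2 libraries of conflicting field LPS in shielded mice called 8369 genes, the shield without LPS 292 genes, 1 pathway gene and 0 members (4 at an unadjusted p under 0.05, edgeR), and the difference 148 genes and 4 pathway genes. With them grouped by the field, which puts libraries with LPS-response means of 3.31 and 2.94 in the LPS group, edgeR called 0 genes, 0 pathway genes and 0 members for LPS in shielded mice (284, 1 and 0 at an unadjusted p under 0.05), and 117, 1 and 2 for LPS in unshielded mice. For the shield without LPS it called 0, 0 and 0 (809, 2 and 0 unadjusted), after LPS 1464, 8 and 3, and for the difference 0 genes and 0 pathway genes (481 and 1 unadjusted).

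By the field, 3 log2 fold changes of unshielded over shielded mice after LPS reversed. They were 0.11 for Dgat2 (-0.24 by the titles), 0.02 for Angptl4 (-0.60) and -0.20 for Lipa (0.36). In the difference of LPS effects the reversed values by the field were -0.13 for Lpin1, -0.21 for Cyp27a1 and -0.03 for Slc27a1. Gpr183 reversed to -0.12 with library totals for LPS in shielded mice. For the shield without LPS, where it had 0.06, it reversed to -0.06 without unshielded library 1 and kept its direction, at 0.18, without unshielded library 3. The cause was not tested. No called member changed direction in any alternative.

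With the replicate block LPS in shielded mice had 9 member calls, 53 pathway genes and 11809 genes in all, and the block changed no call of a named gene there. In every comparison the samples are known to share only a number. Outside LPS in shielded mice the block gave 8813 genes for LPS in unshielded mice. It gave 3405 genes and 25 pathway genes for the shield without LPS, 5720 genes after LPS and 2891 for the difference. Abhd5 for LPS in unshielded mice, Cpt1a after LPS and Slc27a1 in the difference were then not called. Of 6 libraries in each pairing 4, 1, 4 and 3 correlated best with their own number for LPS in shielded and unshielded mice and for the shield without and after LPS.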
